A study of Glycine max with 18 samples.

Results

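Roots of soybean (Glycine max) cultivar Williams 82 (W82) that had been dehydrated for 10 h (W-D10) were compared with W82 roots collected at 0 h from well-watered plants (W-C). The comparison rests on 6 of the 18 arrays of the series, 3 per group, and on all 66195 probes of the soybean array, so no probe was chosen by its value. W82 is the cultivar whose genome was sequenced and is the more drought-sensitive of the pair studied; W82 roots after 2 h (W-D2) and roots of the drought-tolerant cultivar DT2008 after 10 h (DT-D10) and at 0 h (DT-C), 3 arrays each, are used only to show where the W82 response at 10 h differs. All plants were 14 d old and had grown in vermiculite under regular watering. They were lifted whole, their roots were rinsed, and the plants were left to dry on paper under dimmer light and cooler air than in the greenhouse. No watered plants were collected at 2 h or 10 h, so drying, handling, the change of light and the time of day cannot be told apart.

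Each value is a log2 hybridisation signal set relative to that probe's median over the 18 arrays. A value of 1 therefore lies 2-fold above the probe's own median, and differences between samples carry meaning whereas levels of different genes cannot be compared. For the same reason the presence of root marker transcripts could not be checked. A rise or fall in such a bulk tissue does not separate a change of RNA per cell from a change in the share of cells of 1 type, and probes of near-identical gene copies can share signal.

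Abscisic acid (ABA) is the hormone through which plant cells sense a falling water status. It binds receptors of the PYR/PYL/RCAR family, which then inhibit clade A type 2C protein phosphatases (PP2Cs). Freed SnRK2 kinases phosphorylate bZIP transcription factors, which switch on genes for transport proteins, for sugars that act as compatible solutes, and for hydrophilic proteins of the late embryogenesis abundant (LEA) type. Roots meet drying soil first and also adjust water channels, ion transport and cell walls.

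The 3 arrays of each group correlated with each other more closely than with those of the other group. Over all probes, the correlation between values ranged from 0.37 to 0.59 among W-D10 arrays and from 0.67 to 0.72 among W-C arrays, and from -0.16 to -0.02 between W-D10 and W-C arrays. Replicate 3 of W-D10 stood somewhat apart and received the lowest array weight, 0.523. Without it, 2391 probes rose and 1271 fell.

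In the comparison of W-D10 with W-C, 3407 of 66195 probes (5.15%) passed the test, which asked for a limma p-value below 0.05 after Benjamini-Hochberg adjustment over all probes and for at least a 2-fold change. Of these, 2307 (3.49%) rose and 1100 (1.66%) fell. By the adjusted p alone, without a limit on the size of change, 5603 probes (8.46%) were higher and 4918 (7.43%) lower, 15.9% of the array in all. Increases were larger as well as more numerous, with a median log2 change of 1.41 among probes that rose and -1.24 among probes that fell. At least 8-fold changes were seen for 128 rises and 21 falls, and at least 16-fold changes for 34 rises and 4 falls. The largest rise reached 6.84 and the largest fall -4.44 on the log2 scale. Over all probes the median change was -0.035. The 2 groups of 3 arrays did not overlap for 3367 of the 3407 probes that passed, against 20927 probes (31.6%) on the whole array. The p-values rest on the spread within all 6 groups of the 18 arrays, not on that of the compared arrays alone. The study describes each group as 3 biological replicates.

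Only some of these probes could be given a name. A gene was assigned to 5833 probes, by tables of the study or by the gene symbol in the array annotation, and 1044 of the 3407 probes that passed carried exactly 1 gene, 815 that rose and 229 that fell. Of the 50 strongest rises 13 were named, and of the 50 strongest falls 17. Of the named probes, 552 came from a table that the study had itself drawn up from W-D10 against W-C, and 526 of these rose, so they are not independent evidence of direction. The tables of selected genes were used here in shortened form, that of decreases most of all, and the balance of rises and falls within any gene family below partly follows from that. Outside the tables of selected genes as used here were 4419 named probes, and outside the tables has that meaning below. For 1561 of them the name came from a study table without such a selection. Of the 4419, 101 rose and 64 fell, which is 3.73% and below the 5.15% of the whole array. Such a probe may still have been selected by the study in rows not used here, most of all a probe that fell.

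The leading named rises and falls were taken only from probes whose 2 groups did not overlap. Their separation therefore follows from that choice. The largest named increase belonged to a galactinol synthase. Glyma.19G227800, the match of Arabidopsis GolS2 in the first committed step of raffinose synthesis, had values of 2.26, 2.1 and 2.64 in W-D10, against -3.06, -3.68 and -2.92 in W-C. Its change was 5.55 ± 0.27 on the log2 scale (standard error, adjusted p = 1.5e-10). Glyma.13G222000, the match of the ABC transporter PGP9, had 0.71, 0.98 and 0.05 in W-D10, against -3.86, -3.82 and -3.80 in W-C. Glyma.02G034200, an ARM repeat protein, had 1.14, 1.37 and 0.88 in W-D10, against -2.95, -3.29 and -3.78 in W-C. In all 3 genes the lowest dehydrated array lay far above the highest watered one. Glyma.06G258000, a calcium-binding EF-hand protein, had 2.25, 1.75 and 2.56 in W-D10, against -2.41, -2.14 and -1.84 in W-C (log2 change 4.32 ± 0.19, adjusted p = 7.1e-11). Glyma.20G213800, which is weakly similar to an O-methyltransferase, had 0.47, 0.70 and 0.15 in W-D10, against -4.07, -3.93 and -3.56 in W-C (4.29 ± 0.19, adjusted p = 7.3e-11). Neither pair of groups overlapped. Glyma.04G083000, which the study lists as a putative phosphoinositide binding protein, had 0.36, 0.78 and 0.54 in W-D10, against -3.35, -3.49 and -3.20 in W-C (3.90 ± 0.17, adjusted p = 4.7e-11).

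Among the named decreases an aminotransferase led. Glyma.01G131100, which matches ASP1, an aspartate aminotransferase of nitrogen and carbon metabolism, had 0.68, -0.93 and -0.56 in W-D10, against 5.25, 4.14 and 3.11 in W-C, the largest fall of the array (-4.44 ± 0.39, adjusted p = 2.7e-07). Its watered arrays spread over more than 2 log2 units, and still the lowest of them lay above the highest dehydrated array. A probe with the array symbol SHOOT2 came next, with 1.09, -0.49 and -0.01 in W-D10, against 4.72, 3.59 and 3.62 in W-C (-3.78 ± 0.34, adjusted p = 3.4e-07). It was followed by Glyma.02G157900, an unknown protein, at -3.29 ± 0.30 and by genes for wound-responsive proteins described further on. LOC100306683, a symbol without a described product, had -0.07, -1.47 and -0.15 in W-D10, against 2.75, 2.89 and 2.16 in W-C (-3.16 ± 0.49, adjusted p = 0.00016). Glyma.14G121400 (SACPD-C), a stearoyl-acyl carrier protein desaturase that turns stearic into oleic acid, had -0.53, -0.93 and -0.42 in W-D10, against 2.85, 2.39 and 1.64 in W-C (-2.92 ± 0.25, adjusted p = 2e-07). Glyma.12G004600, an inhibitor of pectin methylesterase or invertase, had -0.43, -0.34 and -0.59 in W-D10, against 2.49, 3.15 and 1.89 in W-C (-2.96 ± 0.25, adjusted p = 1.9e-07). Glyma.08G254400, the match of the transcription factor bZIP42, had 0.19, 0.23 and 0.33 in W-D10, against 3.39, 2.56 and 2.46 in W-C (-2.56 ± 0.21, adjusted p = 1.3e-07). No dehydrated array of these genes reached a watered one, which the choice of leading genes had required.

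**Figure D1:**
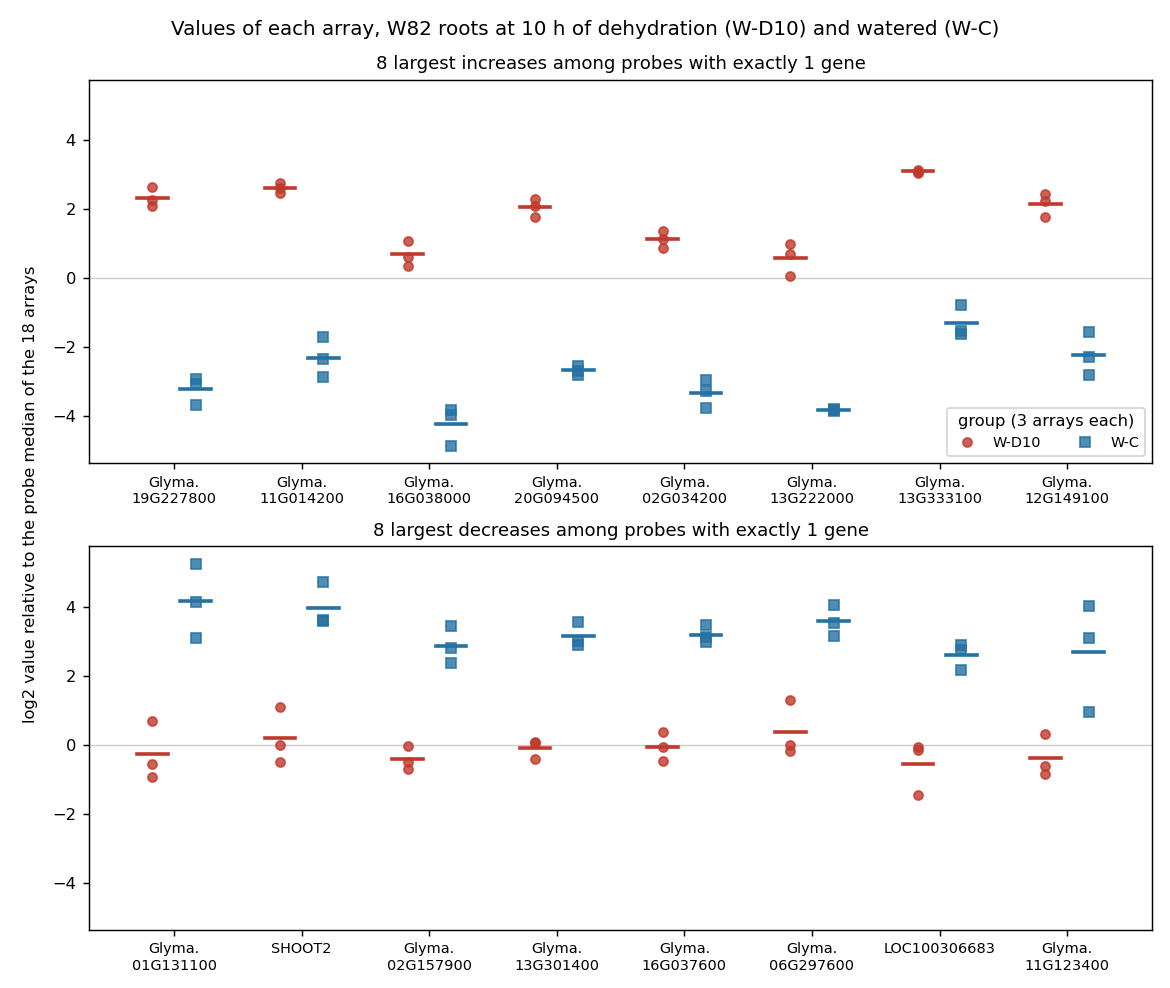
Log2 value of each array, relative to the probe's median over the 18 arrays, for the 8 strongest rises and 8 strongest falls among probes with exactly 1 gene that passed the test; circles are W-D10 and squares W-C, 3 arrays each. Only genes whose 2 groups did not overlap were eligible, so all 16 are apart by choice. The largest increase is 5.55 (Glyma.19G227800) and the largest decrease -4.44 (Glyma.01G131100).

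The ABA pathway was represented by 30 named probes, of which 15 rose, 10 fell and 5 did not pass, with a median change of 0.98 against -0.035 over all probes, of which 3.49% rose and 1.66% fell. Of the 30, 16 came from the study's own table of W-D10 against W-C, so their direction is not independent of that table. Of the 2 outside the tables of selected genes as used here none rose and 1 fell. All 4 receptor genes fell. Glyma.02G261900, 1 of 3 matches of the receptor PYL5, had -0.33, -0.27 and -0.40 in W-D10, against 0.84, 0.89 and 0.90 in W-C (-1.21 ± 0.14, adjusted p = 7.4e-06). Glyma.11G233300 had -0.19, -0.24 and -0.56 in W-D10, against 0.84, 0.84 and 0.85 in W-C, and Glyma.14G056300 had -0.02, -0.15 and -0.19 in W-D10, against 1.05, 1.26 and 1.04 in W-C. The decreases of the PYL5 matches were thus alike, between -1.17 and -1.24, with no overlap. Glyma.01G018800, the PYL1 match, had -0.29, -1.23 and -0.81 in W-D10, against 0.38, 0.29 and 0.52 in W-C (-1.17 ± 0.23, adjusted p = 0.0014). This gene scattered more among dehydrated arrays, and without replicate 2 of W-D10 its change was -0.95, short of 2-fold.

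Of 13 PP2C genes, 7 rose and 4 fell. The 7 that rose are the matches of the negative regulators of ABA signalling ABI1, PP2CA (AHG3) and HAI2, and 1 further PP2C, and their changes lay between 1.44 and 1.74. Glyma.05G227100, an ABI1 match, had 1.16, 1.39 and 0.99 in W-D10, against -0.86, -0.23 and -0.48 in W-C (1.71 ± 0.18, adjusted p = 1.8e-06). Glyma.08G033800, the other ABI1 match, had 0.69, 0.63 and 0.77 in W-D10, against -0.85, -1.06 and -0.95 in W-C (1.65 ± 0.15, adjusted p = 3.9e-07). Glyma.19G069200, the HAI2 match, had 1.43, 1.54 and 1.78 in W-D10, against 0.09, -0.29 and -0.28 in W-C (1.74 ± 0.21, adjusted p = 1.4e-05). Groups were apart in each, and the PP2CA matches Glyma.11G222600, Glyma.14G066400 and Glyma.18G035000 rose by 1.64, 1.56 and 1.44. The 4 PP2Cs that fell carry no name of a known ABA regulator. Glyma.17G230600 had 0.05, 0.19 and -0.39 in W-D10, against 1.89 in each W-C array (-1.94 ± 0.17, adjusted p = 3e-07), and Glyma.06G050900 fell by 1.34. Glyma.18G208100 fell by 1.26 (adjusted p = 0.003). Glyma.12G202400 fell by 1.03, only just past 2-fold, and by 0.96 without replicate 3 of W-D10 and 0.99 without replicate 3 of W-C. The HAI3 match Glyma.01G225100 did not pass, with 0.36, -0.06 and -0.44 in W-D10, against 0.47, -0.16 and -0.95 in W-C.

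Both SnRK2 kinase genes on the list stayed short of 2-fold, Glyma.04G205400 (SPK-4) at -0.43 ± 0.13 (adjusted p = 0.027) and Glyma.08G188300 at -0.23 ± 0.16 (adjusted p = 0.39). Downstream of the kinases, Glyma.07G213100, the match of the ABA-responsive bZIP factor ABF1, had 0.67, 0.60 and 0.67 in W-D10, against -0.30, -0.63 and -0.41 in W-C (1.09 ± 0.18, adjusted p = 0.00024); without replicate 2 of W-C the change was 1.0 and just missed 2-fold. Glyma.18G267200, the match of AFP2, whose product binds and restrains the bZIP factor ABI5 in Arabidopsis, had 0.42, 0.63 and 0.71 in W-D10, against -1.14, -1.09 and -1.12 in W-C (1.70 ± 0.13, adjusted p = 3.6e-08).

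The amount and place of the hormone depend on its synthesis, breakdown and transport, for which the list held 1, 1 and 6 genes. Glyma.16G179100 matches a beta-carotene hydroxylase of the carotenoid pathway from which ABA is made, and had 0.79, 0.78 and 1.40 in W-D10, against -1.31, -1.32 and -1.04 in W-C (2.21 ± 0.23, adjusted p = 1.6e-06). Glyma.01G153300 matches the ABA 8'-hydroxylase CYP707A1, which begins ABA breakdown, and had -0.12, 0.52 and -0.19 in W-D10, against 1.35, 1.2 and 0.86 in W-C (-1.06 ± 0.22, adjusted p = 0.0024). Its decrease ended between -0.93 and -0.97 when replicate 1 of W-C or replicate 1 or 3 of W-D10 was left out, so that call rests on the full set of arrays. Of the 6 transport genes 5 rose, each by more than 4-fold. Glyma.10G217300, the match of the ABA exporter ABCG25, had 1.0, 1.12 and 0.87 in W-D10, against -1.52, -1.44 and -1.44 in W-C (2.46 ± 0.12, adjusted p = 2.3e-10), and its second match Glyma.20G174800 rose by 2.34 ± 0.19 (adjusted p = 9.8e-08). Glyma.02G022200 and Glyma.01G042100 match NRT1:2, a nitrate transporter that also carries ABA into Arabidopsis cells, and rose by 2.55 ± 0.21 and 2.28 ± 0.21. Exporter and importer matches thus rose together. The PDR12 (ABCG40) matches, which in Arabidopsis import ABA, went opposite ways. Glyma.03G168000 had 1.44, 0.79 and 0.98 in W-D10, against -1.0, -1.2 and -1.09 in W-C (2.17 ± 0.27, adjusted p = 1.6e-05). Glyma.19G169400 had -0.87, -0.78 and -0.93 in W-D10, against -0.37, 0.26 and 0.84 in W-C (-1.11 ± 0.30, adjusted p = 0.017), and without replicate 3 of W-C that decrease was -0.81 with an adjusted p of 0.11.

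**Figure D2:**
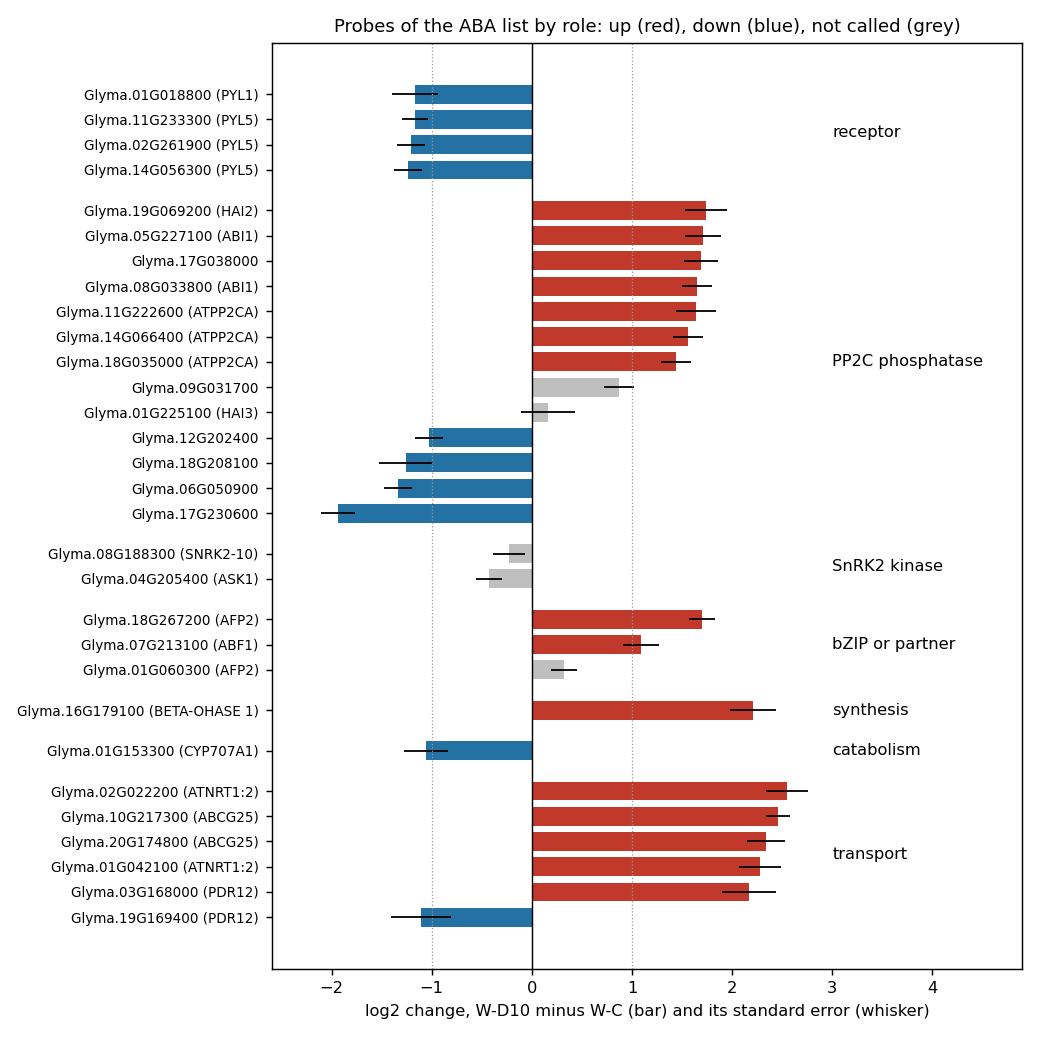
Log2 change, W-D10 minus W-C, with its standard error, for the 30 named probes of the ABA list arranged by role from receptors to transport; red bars rose, blue bars fell and grey bars did not pass the test. The 4 receptors all lie below 0, between -1.17 and -1.24, 7 of 13 PP2Cs lie above 1.4, and 5 of 6 transporters lie above 2.

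Galactinol synthases, which join inositol and galactose, and raffinose synthases, which use that galactinol, feed the raffinose family of sugars. Of the 8 genes of this list 6 rose and 1 fell, with a median of 2.28, beside 3.49% and 1.66% of all probes, but 6 of the 8 came from the study's table of W-D10 against W-C and none lay outside the tables. Glyma.20G094500, a GolS1 match, had 1.78, 2.1 and 2.29 in W-D10, against -2.69, -2.80 and -2.54 in W-C (4.74 ± 0.18, adjusted p = 1.2e-11). The other 2 galactinol synthases changed about as much as each other, Glyma.10G145300 by 2.33 ± 0.18 and Glyma.03G229800 by 2.22 ± 0.26. Glyma.05G003900, a raffinose synthase of the SIP1 type, had 2.5, 3.05 and 2.68 in W-D10, against 0.10, 0.00 and -0.46 in W-C (2.86 ± 0.22, adjusted p = 4.6e-08). Glyma.02G303300, another SIP1 match, ran the other way, with -0.17, 0.18 and -0.18 in W-D10, against 1.23, 0.70 and 1.18 in W-C (-1.09 ± 0.18, adjusted p = 0.00029). Without replicate 1 of W-C this decrease rounded to -1.0 and just missed 2-fold. The alpha-galactosidase match Glyma.16G220400, an enzyme that splits such sugars, rose by 1.17 ± 0.21.

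Of 38 probes for starch and sugar metabolism and transport, 17 rose and 2 fell (median 0.52), beside 3.49% and 1.66% of all probes. The study's table of W-D10 against W-C supplied 11 of them, and of the 14 outside the tables none rose and 1 fell. Glyma.08G200600, the match of hexokinase HXK2, led them with 1.24, 1.02 and 1.03 in W-D10, against -2.95, -2.64 and -2.24 in W-C (3.70 ± 0.22, adjusted p = 1.9e-09). The beta-amylase BAM1, which releases maltose from starch, had 2 matches that rose, Glyma.09G168300 by 2.68 ± 0.17 and Glyma.16G217900 by 2.02 ± 0.16. Glyma.03G226100, the large subunit of ADP-glucose pyrophosphorylase on the synthetic side of starch, rose as well, with 1.33, 1.41 and 1.27 in W-D10, against -0.82, -0.76 and -0.78 in W-C (2.12 ± 0.22). Both breakdown and synthesis genes of starch were therefore among the increases. The monosaccharide carriers split. Glyma.11G004800 (STP13 match) rose by 1.61 ± 0.15, whereas Glyma.01G067600 (STP1 match), a gene outside the tables as used here, had -0.09, -0.49 and -0.51 in W-D10, against 0.84, 0.97 and 0.68 in W-C (-1.2 ± 0.16, adjusted p = 2.8e-05).

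LEA proteins, dehydrins and related proteins are hydrophilic proteins that build up as tissue dries. On the list of 43 probes 13 rose and none fell, and the list median of 0.28 shows that the rest moved little. Of the 30 members outside the tables, 2 rose, beside 3.49% of all probes. The study's table of W-D10 against W-C supplied 10 of the 43. Glyma.16G038000, which matches a small Arabidopsis dehydrin, had 0.36, 0.61 and 1.09 in W-D10, against -4.86, -3.84 and -3.98 in W-C. Glyma.06G167900, the match of the stress-inducible membrane protein HVA22E, had 2.18, 2.24 and 3.20 in W-D10, against -1.18, -0.90 and -1.19 in W-C (3.63 ± 0.28, adjusted p = 4.5e-08). Glyma.11G020600, an LEA hydroxyproline-rich glycoprotein, had 0.10, 0.39 and 0.35 in W-D10, against -2.14, -2.35 and -2.14 in W-C (2.48 ± 0.18, adjusted p = 2.6e-08). Groups were apart in these 3 genes, and replicate 3 of W-D10 was the highest in the first and second of them. Glyma.10G142700, which matches the small membrane protein RCI2B, rose by 2.03 ± 0.22 and Glyma.19G211600, an LEA3 protein, by 1.67 ± 0.15.

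Aquaporins are water channels of the tonoplast, which bounds the vacuole, and of the plasma membrane. Of 8 aquaporin probes 6 rose and 1 fell (median 1.66), beside 3.49% and 1.66% of all probes, and 4 of the 8 came from the study's table of W-D10 against W-C. The 3 matches of the tonoplast channel TIP1;3 covered a wide span. Glyma.13G333100 had 3.08, 3.15 and 3.06 in W-D10, against -1.53, -0.77 and -1.61 in W-C (4.40 ± 0.30). Glyma.15G041200 had 2.74, 2.92 and 2.78 in W-D10, against -0.25, -0.05 and -0.05 in W-C (2.93 ± 0.19, adjusted p = 8.1e-09). Glyma.11G143100 had 1.93, 1.75 and 1.74 in W-D10, against -0.32, -0.01 and -0.67 in W-C (2.14 ± 0.20, adjusted p = 6.5e-07). In each of them the dehydrated arrays lay close together. The plasma membrane channel PIP1;4 had 2 matches of opposite direction, Glyma.03G078700 with 1.44, 1.26 and 0.72 in W-D10, against -0.98, -0.77 and -0.31 in W-C (1.83 ± 0.21), and Glyma.18G198300 with -0.50, -0.46 and -0.81 in W-D10, against 0.56, 0.49 and 0.45 in W-C (-1.09 ± 0.19; -0.98 without replicate 3 of W-D10). PIP2-9 rose by 1.49 ± 0.33 (adjusted p = 0.0039), the NIP1;2 match Glyma.05G162600 by 1.29 (adjusted p = 0.00012), and PIP2-1 did not pass (-0.22, adjusted p = 0.43).

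Ion and nutrient transport changed in both directions, with 10 of 25 probes up and 6 down, beside 3.49% and 1.66% of all probes. From the study's table of W-D10 against W-C came 9 of the 25, and 7 lay outside the tables. Of those 7, 1 rose and none fell. Glyma.04G212200, a match of the cation/proton exchanger CHX15, had 0.36, 0.54 and -0.09 in W-D10, against -2.62, -2.77 and -2.57 in W-C (2.93 ± 0.22, adjusted p = 3.5e-08), and a second match, Glyma.06G154200, rose by 2.12 ± 0.25. Glyma.08G091900, the match of the potassium transporter KUP1, rose by 1.25 ± 0.14, and the phosphate transporter match PHT4;5, Glyma.13G162900, by 2.22 ± 0.19. Nitrate transport genes changed in both directions. Glyma.17G124900, a match of NRT3.1, the partner protein of high-affinity carriers, had -0.58, -0.25 and -0.48 in W-D10, against 1.25, 1.28 and 1.2 in W-C (-1.68 ± 0.14, adjusted p = 1.3e-07), and Glyma.12G078900, which matches the high-affinity carrier NRT2.4, fell by 1.69 ± 0.34 (adjusted p = 0.0017). Glyma.18G260000, which matches NRT1.5, the carrier that loads nitrate into the xylem in Arabidopsis, rose by 1.69 ± 0.29, and a probe with the symbol NRT1-1 rose by 1.56 ± 0.13 (adjusted p = 8.2e-08). Probes with the symbols NRT2 (-0.60) and NRT1-3 (-0.43) stayed short of 2-fold, and NIR, the symbol of nitrite reductase, was at -1.09 ± 0.24 (adjusted p = 0.0038). Glyma.01G123400, an ammonium transporter of the AMT2 type, had -0.20, 0.04 and -0.04 in W-D10, against 2.34, 1.91 and 2.20 in W-C (-2.21 ± 0.17, adjusted p = 6.1e-08). The second CHX15 match, the KUP1, PHT4;5, NRT2.4 and NRT1.5 matches and the NRT1-1, NRT1-3, NRT2 and NIR probes were chosen for description after their values were seen, as were the beta-carotene hydroxylase, the ABA receptors, most PP2Cs, the SnRK2s and ABF1 above and the LBD41, LHY and TOC1 probes below.

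Transcription factors of the NAC family, many of which respond to drought, rose on 16 of 32 probes and fell on 1 (median 0.99). Of all probes on the array, 3.49% rose and 1.66% fell, and 13 of the 32 came from the study's table of W-D10 against W-C. Both matches of RD26, an ABA- and drought-induced NAC factor, were among the rises. Glyma.12G149100 had 2.44, 2.23 and 1.78 in W-D10, against -2.81, -2.29 and -1.55 in W-C (4.37 ± 0.26, adjusted p = 2.7e-09), and Glyma.06G248900 (NAC3) had 0.75, 0.75 and 0.55 in W-D10, against -1.78, -1.94 and -1.85 in W-C (2.54 ± 0.15, adjusted p = 1.7e-09). The ATAF1 matches rose less, Glyma.14G152700 by 1.37 ± 0.13 and Glyma.13G030900 by 1.10 ± 0.16, the second by 0.93 without replicate 2 of W-D10. NAC14 was the 1 member that fell, with -0.42, -0.08 and -0.08 in W-D10, against 0.90, 0.84 and 0.95 in W-C (-1.09 ± 0.15), or -0.97 without replicate 1 of W-D10. Of the 15 NAC probes outside the tables, 1 rose and 1 fell.

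Among 37 AP2/ERF factors, the family of the dehydration-responsive DREB proteins, 17 rose and 3 fell (median 0.42), beside 3.49% and 1.66% of all probes. The study's table of W-D10 against W-C supplied 13 of them, and of the 8 outside the tables none passed (median -0.27). Glyma.11G014200 had 2.61, 2.47 and 2.77 in W-D10, against -2.88, -1.70 and -2.35 in W-C (4.93 ± 0.28). Glyma.12G203100 (DREB5) had 0.48, 0.31 and 1.17 in W-D10, against -2.84, -2.92 and -2.53 in W-C (3.42 ± 0.22, adjusted p = 4.4e-09). The decreases were as clear in the single arrays, Glyma.19G163700 having 0.41, -0.20 and -0.06 in W-D10, against 2.39, 2.42 and 1.85 in W-C (-2.17 ± 0.18, adjusted p = 1.6e-07). Glyma.20G195900 fell by 1.76 ± 0.18.

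Of 27 MYB probes 11 rose and 1 fell, beside 3.49% and 1.66% of all probes. From the study's table of W-D10 against W-C came 8 of the 27. For the 14 outside the tables the median was -0.01, with 1 up and none down. Matches of a single Arabidopsis gene, the wound- and osmotic-stress factor MYB102, made up 4 of the increases. Glyma.15G066800 had 2.04, 2.40 and 4.15 in W-D10, against -1.72, -1.37 and -0.82 in W-C (4.16 ± 0.42, adjusted p = 1.5e-06), the dehydrated replicate 3 lying far above the other 2. Glyma.07G189300 had 2.13, 2.39 and 2.32 in W-D10, against -0.75, -0.92 and -0.58 in W-C (3.03 ± 0.19, adjusted p = 4.5e-09). Glyma.08G059900 rose by 2.47 ± 0.19 and Glyma.13G302400 by 2.04 ± 0.19, so the matches rose together but by sizes from 2.04 to 4.16. Of 23 bZIP probes 8 rose, or 5 without replicate 2 of W-C, and 2 fell. From the same study table came 7 of the 23. For the 13 outside the tables the median was -0.26, with 1 up and none down. Glyma.U029500 and Glyma.17G082600 led the bZIP increases at 2.19 each. Of 66 WRKY probes, a family better known from defence, 7 rose (10.6%, beside 3.49% of all probes) and none fell, with a median of 0.12. Without replicate 3 of W-C, 4 of them rose. Glyma.08G082400 (WRKY28 match, 1.82 ± 0.21) and Glyma.14G103100 (WRKY40 match, 1.78 ± 0.23) led them.

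For jasmonate, a hormone of wounding, 11 of 26 probes rose and none fell (median 0.91), beside 3.49% and 1.66% of all probes. Of the 26, 10 came from the study's table of W-D10 against W-C. Of 22 synthesis probes 9 rose and 13 did not pass. The rises included Glyma.13G030300 (lipoxygenase LOX2 match) by 2.06 ± 0.14, the allene oxide cyclase AOC3 matches Glyma.13G047300 and Glyma.19G044900 by 1.5 and 1.3, and the oxophytodienoate reductase OPR3 matches Glyma.17G049900 and Glyma.13G109800 by 2.18 and 1.76. The other 2 rises were Glyma.05G141200, a match of the jasmonate repressor JAZ8, at 1.62, and Glyma.12G087200, a match of CYP94C1, which breaks jasmonate down, at 1.22. Of 10 members of this list outside the tables, none passed. In ethylene synthesis, 3 of 4 ACC synthase genes rose, Glyma.01G196100 by 1.53, Glyma.05G223000 by 1.61 and Glyma.07G128000 by 1.60, whereas the ACC oxidase Glyma.07G129000, which makes ethylene from ACC, had 0.10, -0.42 and -0.11 in W-D10, against 2.00, 1.85 and 1.30 in W-C (-1.86 ± 0.26, adjusted p = 4.7e-05). Consecutive enzymes of 1 pathway thus changed in opposite directions. Gibberellin 2-oxidases, which inactivate gibberellin, gave the 3 increases among 12 gibberellin probes, Glyma.13G259400 by 1.41, Glyma.13G218200 by 1.35 and Glyma.11G104800 by 1.05, the last by 0.98 without replicate 3 of W-D10 and 0.99 without replicate 2 of W-C.

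Auxin genes were divided, with 7 of 35 probes up and 4 down (median -0.20), beside 3.49% and 1.66% of all probes. Of the 17 auxin probes outside the tables none passed. Glyma.17G165300 and Glyma.17G165500, neighbouring matches of GH3.2, an enzyme that ties auxin to amino acids, rose by 2.23 ± 0.20 and 2.03 ± 0.21. SAUR genes, small auxin-responsive genes tied to cell expansion, supplied decreases: Glyma.07G051700 had -0.89, -0.96 and -0.93 in W-D10, against 0.62, 0.94 and 1.07 in W-C (-1.80 ± 0.14, adjusted p = 7.7e-08), Glyma.18G300900 fell by 1.82 ± 0.17 and Glyma.16G020700 by 1.42 ± 0.14. Calcium signalling genes rose on 16 of 34 probes and fell on 2 (median 0.81). Both matches of the kinase CIPK12, Glyma.13G228400 and Glyma.15G084100, rose by 2.20 ± 0.14 and 2.18 ± 0.20. The decreases, both of kinases of the same family, were the least steady: Glyma.08G218400 (CIPK5) had -1.11, 0.00 and -2.14 in W-D10, against 0.14, 0.21 and 0.08 in W-C (-1.23 ± 0.32, adjusted p = 0.012), and -0.70 with an adjusted p of 0.051 without replicate 3 of W-D10. Glyma.09G277000 (CIPK10 match) fell by 1.04, and by 0.75 without replicate 3 of W-D10. Among 18 probes for proline and polyamines, both of them solutes of stressed tissue, 8 rose and none fell. Of the 18, 6 came from the study's table of W-D10 against W-C, and of the 9 outside the tables none passed. Glyma.11G226000, the match of the proline transporter PROT1, had 0.97, 1.10 and 1.27 in W-D10, against -0.55, -0.51 and -0.85 in W-C (1.75 ± 0.16), and the polyamine oxidase PAO2 matches Glyma.18G116300 and Glyma.08G303800 rose by 1.86 and 1.55.

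Cell wall genes included strong changes both ways, with 20 of 64 probes up and 10 down and a median of only 0.10. Of all probes on the array, 3.49% rose and 1.66% fell. The study's table of W-D10 against W-C supplied 18 of the 64, and of the 26 outside the tables none passed. Pectin methylesterase or invertase inhibitors showed the contrast most clearly. Glyma.10G009000 had 0.72, 0.66 and 0.62 in W-D10, against -3.07, -2.28 and -2.68 in W-C (3.35 ± 0.18, adjusted p = 7e-10), and Glyma.09G033700 had 0.02, -0.36 and -0.27 in W-D10, against 1.72, 2.06 and 1.83 in W-C (-2.08 ± 0.15, adjusted p = 1.8e-08). Glyma.01G240200, a COBRA-like protein, rose by 3.29 ± 0.21, and Glyma.17G065000, a xyloglucan-modifying XTH16 match, by 2.38 ± 0.24. Genes of glutathione, thioredoxin and other redox proteins rose on 18 of 66 probes. The study's table of W-D10 against W-C supplied 15 of the 66, and of the 42 outside the tables none rose and 1 fell. SODB2, an iron superoxide dismutase symbol, was the 1 that fell, with 0.00, -1.02 and -0.66 in W-D10, against 0.70, 1.67 and 0.27 in W-C (-1.44 ± 0.38, adjusted p = 0.013), and it did not pass without replicate 2 of W-C (adjusted p = 0.085) or replicate 2 of W-D10 (adjusted p = 0.069). Among 26 class III peroxidases, which act in the wall, 6 rose and 4 fell. Of the 26, 4 came from the study's table of W-D10 against W-C, and of the 5 outside the tables none passed. Glyma.20G171900 rose by 3.21 ± 0.26 and Glyma.11G197100 by 3.10 ± 0.21.

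In other enzyme and transport families rises outnumbered falls, but most members did not pass except among ABC transporters, and 3.49% of all probes rose and 1.66% fell. Of 39 cytochrome P450 probes 14 rose and 3 fell, of 20 UDP-glycosyltransferases 6 rose and 2 fell, and of 10 ABC transporters 6 rose and 1 fell. Glyma.13G068800, a CYP82C4 match, rose by 2.84 ± 0.31 and Glyma.18G265800, a glycosyltransferase, by 2.67 ± 0.23. In lipid metabolism, where 6 of 39 probes rose and 3 fell, Glyma.05G168300, the match of phospholipase D delta, had 2.42, 2.39 and 2.39 in W-D10, against -1.21, -0.57 and -0.49 in W-C (3.16 ± 0.35, adjusted p = 4e-06). The dehydrated arrays of this gene were nearly identical. Heat-shock factors and chaperones rose on 10 of 36 probes and fell on 1. The heat-shock factor HSFC1 matches Glyma.07G086300 and Glyma.09G190600 rose by 2.26 ± 0.22 and 2.09 ± 0.21, and the DnaJ-type chaperone Glyma.07G043100 fell by 1.91 ± 0.16. Medians were -0.07 for lipid metabolism and 0.23 for the heat-shock list. Receptor-like kinases rose on 14 of 46 probes and fell on 3 (median 0.00), or on 5 without replicate 3 of W-D10. Among 17 metal transport probes 5 rose, led by the heavy metal domain protein Glyma.02G260700 at 2.88 ± 0.36, and 1 fell, the cation efflux protein Glyma.18G050400 at -1.28 ± 0.14.

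The list with the most falls consisted of soybean matches of Arabidopsis genes that belong to the core response to low oxygen, a response that flooded or oxygen-starved roots show. Of 21 probes 17 fell and 2 rose, with a median change of -1.98 against -0.035 over all probes, and 1.66% of all probes fell. All 21 came from the study's tables of selected genes, and the list's title comes from Arabidopsis, so the members are named here by what they encode. Many are annotated as wound-responsive proteins. Glyma.13G301400 had -0.41, 0.05 and 0.09 in W-D10, against 3.02, 2.89 and 3.56 in W-C (-3.25 ± 0.22, adjusted p = 8.1e-09). Glyma.13G301700, close to it in numbering, had 0.06, -0.28 and -0.29 in W-D10, against 2.56, 2.99 and 3.10 in W-C (-3.05 ± 0.16, adjusted p = 3.7e-10). Both groups were apart by more than 2 log2 units. Glyma.16G037600, which encodes a protein of unknown function, had 0.36, -0.05 and -0.48 in W-D10, against 3.48, 3.12 and 2.97 in W-C (-3.25 ± 0.18, adjusted p = 1.1e-09). Glyma.13G149700, annotated as sequence-specific DNA binding, had 0.24, -0.39 and 0.04 in W-D10, against 3.21, 2.73 and 2.75 in W-C (-2.93 ± 0.21, adjusted p = 2.6e-08). Glyma.08G365100, the match of the transcription factor LBD41, fell by 1.98 ± 0.24 (adjusted p = 9.3e-06). Glyma.12G200700, of the same wound-responsive family, was 1 of the 2 that rose, with 1.19, 1.01 and 2.46 in W-D10, against 0.11, -0.03 and -0.17 in W-C (1.58 ± 0.30, adjusted p = 0.0012). The other was a GDSL-type lipase, Glyma.15G079300, at 1.80 ± 0.22. In W82 the genes of this list that fell were highest in W-C, and whether the watered, freshly rinsed roots differed from dried ones in oxygen was not tested.

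Genes tied to the daily clock formed a smaller group. Of 18 probes 6 rose and 1 fell (median 0.49), beside 3.49% and 1.66% of all probes. The study's table of W-D10 against W-C supplied 7 of them, and of the 5 outside the tables none passed (median -0.01). Glyma.17G242100, a match of the cold-regulated gene COR27, had -0.34, 0.04 and -0.25 in W-D10, against -2.91, -3.62 and -3.61 in W-C (3.20 ± 0.21, adjusted p = 7.1e-09). Glyma.16G163200, the match of GIGANTEA, an evening gene of the clock, had 0.01, 0.03 and -0.02 in W-D10, against -2.23, -2.54 and -2.45 in W-C (2.41 ± 0.19, adjusted p = 6.8e-08). Both were uniformly low in the watered arrays. Glyma.04G228300, a pseudo-response regulator of the PRR5 type, rose by 1.11 ± 0.12 and the RVE1 match Glyma.18G044200 by 1.5 ± 0.18. The pseudo-response regulator APRR2 match Glyma.01G200800 fell by 1.67 ± 0.22. TOC1 did not pass (-0.01), nor did the LHY match Glyma.07G048500 (-0.58 ± 0.16, adjusted p = 0.019). The W-D10 and W-C roots were collected 10 h apart, so clock time and drying cannot be told apart for these genes.

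Markers of other tissues and of growth were read beside these results. Of 16 photosynthesis probes, which would mark shoot tissue, 6 rose and 1 fell (median 0.48), beside 3.49% and 1.66% of all probes. The study's table of W-D10 against W-C supplied 5 of them, and of the 7 outside the tables none passed (median -0.2). Glyma.08G218800 and Glyma.07G023000, both matches of NDF1, a subunit of the chloroplast NDH complex, rose by 3.57 ± 0.33 and 3.44 ± 0.33, the LHCB5 match Glyma.05G149400 rose by 1.78 ± 0.28 and the LHCA4 match Glyma.06G194900 fell by 1.36 ± 0.28. The relative values give no summed level of these markers, and their part in the comparison was not tested. Of 14 nodule marker probes only ENOD93 passed, with -0.37, -0.77 and -0.38 in W-D10, against 1.72, 2.34 and 1.89 in W-C (-2.49 ± 0.25, adjusted p = 1.1e-06). Of 16 ribosomal protein probes 2 rose (12.5%, median -0.08), and of 10 histone and cell-cycle probes 1 rose and 1 fell (median 0.07), beside 5.15% of all probes that passed. None of 13 WNK kinase probes passed, and 1 of 14 GASA peptide probes did (7.14%).

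Soybean keeps many duplicated genes, and 250 Arabidopsis genes were matched by 2 or more named soybean genes. At 93 of them at least 2 soybean genes rose and none fell, at 11 at least 2 fell and none rose, and at 15 at least 1 rose while another fell. Over all probes 3.49% rose and 1.66% fell. The matches come only from tables of the study, and 526 of the 552 probes from its table of W-D10 against W-C rose. The balance of 93 to 11 therefore partly follows from that selection. The wall-bound peroxidase RCI3 was 1 of the 15. Glyma.10G009400 had -0.01, 0.11 and -1.20 in W-D10, against -2.04, -2.37 and -2.83 in W-C (2.04 ± 0.29), while Glyma.02G151700 had 0.91, -0.26 and 0.62 in W-D10, against 1.98, 2.15 and 1.49 in W-C (-1.45 ± 0.27). Cycloartenol synthase CAS1, an early enzyme of sterol synthesis, had Glyma.08G027000 up by 1.91 and Glyma.20G192700 down by 2.05 on the log2 scale. The P450 CYP71B34 had Glyma.11G062500 and Glyma.11G062600 up by 2.21 and 1.89 and Glyma.10G115300 at -1.03. That last decrease fell short of 2-fold, between -0.88 and -0.97, without replicate 1 or 3 of W-C or replicate 2 or 3 of W-D10. Glyma.08G070000, a 2-oxoglutarate-dependent oxygenase, rose by 2.50, while its relatives Glyma.13G147600 and Glyma.10G063000 had -2.32 and -1.30. The opposite pairs also include the PDR12 and PIP1;4 matches and the wound-responsive proteins above, and matches of the disease resistance protein RPM1.

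Named probes outside the tables of selected genes as used here passed in both directions, 101 up and 64 down. SHOOT2 and LOC100306683, described above, and LOC100305846 at -2.59 ± 0.41 (adjusted p = 0.0002) had the strongest falls. Further examples were picked after their values were seen. Glyma01g39390, given by its gene identifier in an unselected table of the study, had 1.46, 1.70 and 0.91 in W-D10, against -1.47, -2.04 and -2.28 in W-C (3.28 ± 0.28, adjusted p = 1.6e-07). Glyma.01G021000, the match of the defence-related alcohol dehydrogenase ELI3-2, had 2.99, 2.79 and 1.08 in W-D10, against -0.12, 0.06 and -0.66 in W-C. The dehydrated arrays of this gene differed by almost 2 log2 units, yet all lay above the watered ones. A pathogenesis-related protein of the PR-10 symbol rose by 1.74 and the chloroplast fatty acid desaturase FAD7-1 by 1.65.

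The roots at 10 h were also set against those at 2 h, when 1797 probes (2.71%) had passed against W-C. A direct test of W-D10 against W-D2 gave 1614 probes (2.44%), 958 (1.45%) up and 656 (0.991%) down. This test and that against W-C share the W-D10 arrays, so their results are given side by side, gene by gene, and are not independent.

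Named genes showed 3 courses through 0, 2 and 10 h. Glyma.19G227800 (GolS2) climbed at both steps, its mean being -3.22 in W-C, -0.92 in W-D2 and 2.33 in W-D10, and W-D10 exceeded W-D2 by 3.25 (adjusted p = 9.8e-07). The TIP1;3 matches belonged to a late course. Glyma.15G041200 had means of -0.12 in W-C, -0.17 in W-D2 and 2.81 in W-D10, with 2.99 between W-D10 and W-D2 (adjusted p = 2.5e-07). HVA22E (Glyma.06G167900) and the raffinose synthase Glyma.05G003900 did the same, W-D10 exceeding W-D2 by 3.22 and 2.76. The remaining course, with a W-D2 mean near or above that of W-D10, was seen in some clock-linked genes and in Glyma.20G213800. Glyma.16G163200 (GIGANTEA) had means of -2.41 in W-C, 0.01 in W-D2 and 0.01 in W-D10 (W-D10 against W-D2, -0.01, adjusted p = 0.99). COR27 (Glyma.17G242100) had a W-D2 mean of 0.27 beside -0.18 in W-D10 (-0.45, adjusted p = 0.22), and the O-methyltransferase-like Glyma.20G213800 had a W-D2 mean of 0.09 beside 0.44 in W-D10 (0.34, adjusted p = 0.33). The clock list as a whole had a median of 0.31 for W-D2 against W-C beside 0.49 for W-D10 against W-C, and 1 of its 18 probes, the RVE1 match Glyma.18G044200, was higher in W-D10 than in W-D2, by 1.22.

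A part of the low-oxygen matches was lower at 2 h than at 10 h. The list median was -2.70 for W-D2 against W-C, beside -1.98 for W-D10 against W-C, and 8 of its 21 probes were higher in W-D10 than in W-D2. Glyma.06G302900, a wound-responsive protein, had 0.46, 0.11 and 0.56 in W-D10 and a W-D2 mean of -1.31, against 3.04, 2.74 and 2.90 in W-C, and W-D10 exceeded W-D2 by 1.68 (adjusted p = 0.00027). Glyma.13G282400 did so by 1.27 (adjusted p = 0.00059). The same shape was found for the ABA hydroxylase CYP707A1 (Glyma.01G153300), whose W-D2 mean of -1.78 lay far below both other groups and whose W-D10 value exceeded it by 1.86 (adjusted p = 4.2e-05). The PP2C Glyma.18G208100 had the reverse shape, with a W-D2 mean of 1.27 and W-D10 lower by -2.23 (adjusted p = 5.1e-05).

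**Figure D3:**
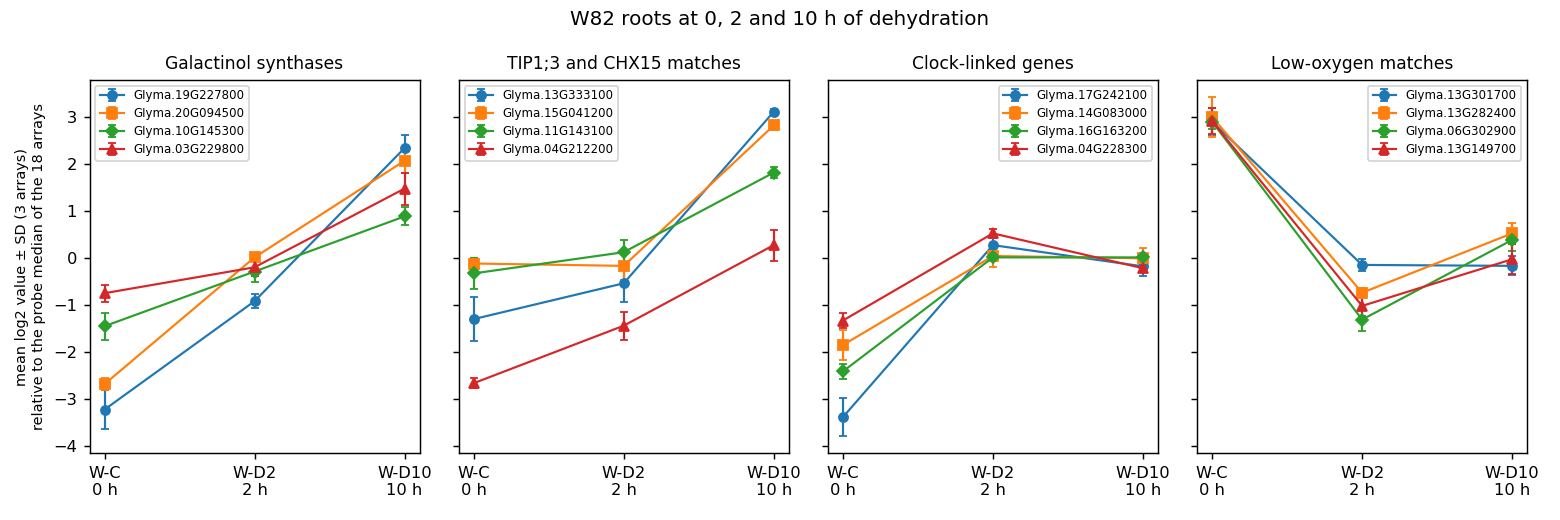
Mean log2 value ± SD (3 arrays), relative to the probe's median over the 18 arrays, in W-C (0 h), W-D2 (2 h) and W-D10 (10 h) for 4 galactinol synthases, TIP1;3 and CHX15 matches, clock-linked genes and low-oxygen matches. Glyma.15G041200 is level until 2 h and 2.99 higher at 10 h, Glyma.16G163200 is level from 2 h on, and Glyma.06G302900 is lowest at 2 h.

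The change at 10 h in W82 was finally set against that in DT2008, with no arrays in common, where 2954 probes (4.46%) passed for DT-D10 against DT-C, by a test of the difference between the changes. It passed for 261 probes (0.394%), 158 (0.239%) with a more positive change in W82 and 103 (0.156%) with a more negative one. These counts were sensitive to single arrays, ranging from 69 to 232 and from 46 to 127 when 1 array was left out, and the difference for most genes below rests on that. Among the 2307 probes that rose in W82, the median change was 1.41 in W82 and 1.13 in DT2008, and the difference passed for 66 as more positive and for 3 as more negative. Among the 1100 that fell, the medians were -1.24 in W82 and -0.76 in DT2008, and 60 differed as more negative and 3 as more positive. Because these probes were picked by their change in W82, the smaller medians in DT2008 and the counts beside them are a description. The study measured relative water content in aerial parts and found the sensitive cultivar drier than the tolerant one at the same time. Equal time was thus not equal drying. Whether a difference between the changes follows cultivar or degree of drying was not tested, here or for the genes below.

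Some of the named genes with such a difference had changes of opposite sign in the cultivars. Glyma.05G220500, the match of the P450 CYP716A1, had 0.31, 0.39 and 1.78 in W-D10, against 3.01, 2.46 and 2.57 in W-C, a change of -1.85 in W82 beside 1.45 in DT2008, and the changes differed by -3.30 ± 0.63 (adjusted p = 0.025). Glyma.06G297600, a wound-responsive protein, had 1.31, 0.00 and -0.19 in W-D10, against 3.15, 3.54 and 4.07 in W-C, a change of -3.21 beside -0.15 in DT2008 (difference -3.06, adjusted p = 0.0019). Glyma.16G037600 changed by -3.25 in W82 and by -1.10 in DT2008 (difference -2.15, adjusted p = 0.00071). Glyma.09G033700, the pectin methylesterase or invertase inhibitor, changed by -2.08 in W82 and by -0.17 in DT2008 (difference -1.91, adjusted p = 0.00028). The ammonium transporter Glyma.01G123400 changed by -2.21 in W82 and by -0.41 in DT2008 (difference -1.80, adjusted p = 0.0022). The decreases of the last 4 of these genes were thus larger in W82. For these 4 the means were -0.21 to 0.37 in W-D10 and -0.35 to -0.03 in DT-D10, against 1.87 to 3.59 in W-C and 0.06 to 0.84 in DT-C, so the cultivars lay closer together after dehydration than when watered.

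On the positive side, the branched-chain aminotransferase match Glyma.04G049200 changed by 1.05 in W82 and by -1.73 in DT2008 (difference 2.78 ± 0.53, adjusted p = 0.027). COR27 (Glyma.17G242100) changed by 3.20 in W82 and by 1.18 in DT2008 (2.02, adjusted p = 0.0042) and GIGANTEA (Glyma.16G163200) by 2.41 in W82 and by 0.90 in DT2008 (1.52, adjusted p = 0.016). NAC11 rose by 1.89 in W82 beside a change of -0.14 in DT2008 (2.04, adjusted p = 0.015). The RD26 matches also differed, Glyma.12G149100 with 4.37 in W82 and 2.58 in DT2008 (1.79, adjusted p = 0.041) and Glyma.06G248900 with 2.54 in W82 and 1.52 in DT2008 (1.02, adjusted p = 0.037). In these genes too the watered roots of the cultivars differed. NAC11 had means of 0.22 in W-D10 and -0.46 in DT-D10, against -1.68 in W-C and -0.31 in DT-C. COR27 had -0.18 in W-D10 and 0.15 in DT-D10, against -3.38 in W-C and -1.02 in DT-C. GIGANTEA had 0.01 in W-D10 and 0.42 in DT-D10, against -2.41 in W-C and -0.48 in DT-C. The RD26 match Glyma.12G149100 had 2.15 in W-D10 and 1.96 in DT-D10, against -2.22 in W-C and -0.62 in DT-C. The 10 h means of these 4 genes were thus closer together than the watered means. In contrast, no probe of the ABA list differed in its change between the cultivars, and the leading galactinol synthase Glyma.19G227800 changed by 5.55 in W82 and by 4.06 in DT2008 with a difference of 1.49 that did not pass (adjusted p = 0.093). A difference that did not pass does not show that the cultivars responded alike.

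**Figure D4:**
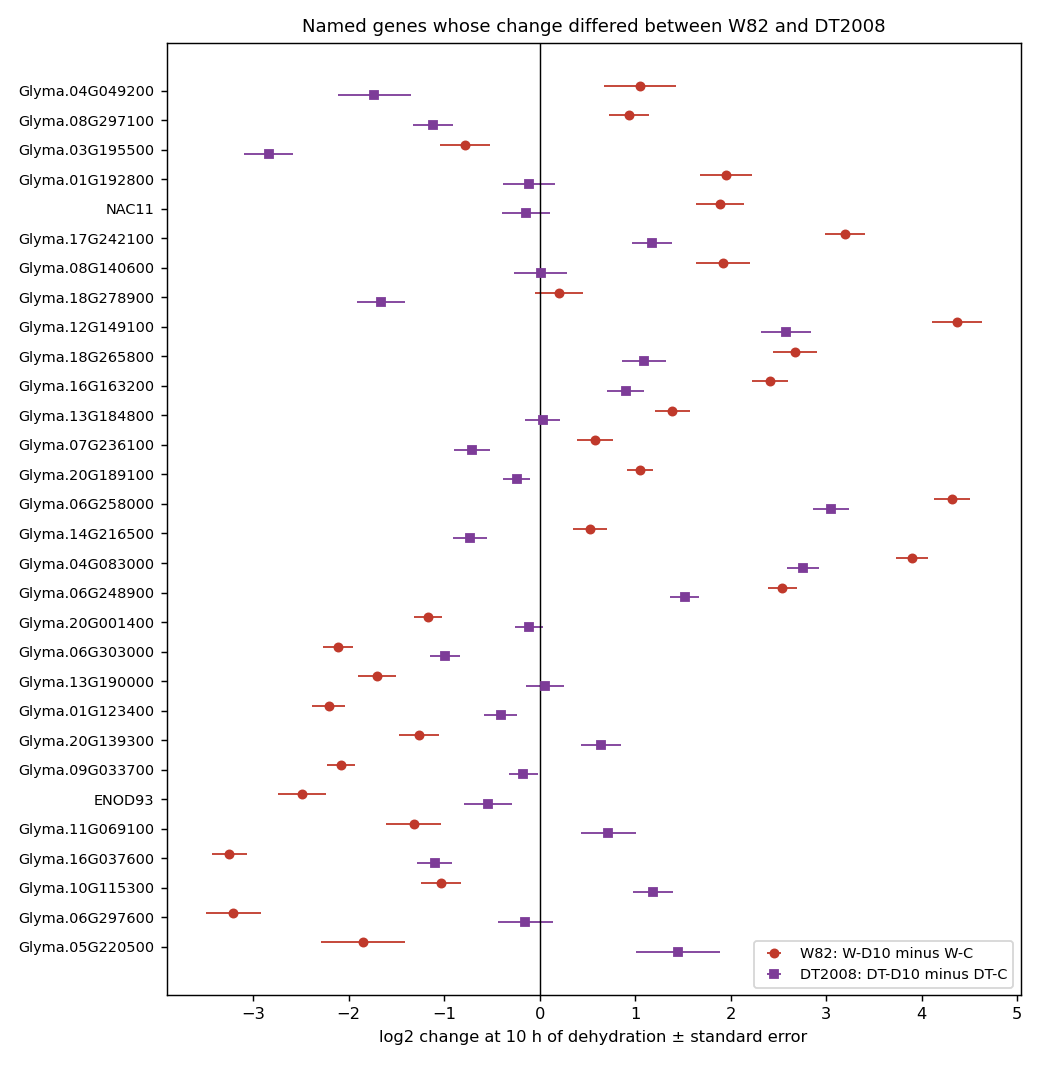
Log2 change at 10 h of dehydration ± standard error in W82 (W-D10 minus W-C, circles) and DT2008 (DT-D10 minus DT-C, squares) for named genes whose change differed between the cultivars. Glyma.05G220500 lies at -1.85 in W82 and 1.45 in DT2008, and Glyma.04G049200 at 1.05 in W82 and -1.73 in DT2008.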

How the data were processed

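Total RNA of W82 and DT2008 soybean roots had been hybridised to the Affymetrix 66K soybean array, 3 arrays for each of 6 groups. The deposited log2 values had been made by the authors with Expression Console and RMA (versions not given in the sources used here) and centred on each probe's median over the 18 arrays; the study's own analysis used GeneSpring 11. The largest absolute probe median was 5e-07. No further normalization was applied.

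A linear model with 1 mean per group was fitted to all 18 arrays with limma 3.58.1 in R 4.3.3 (12 residual degrees of freedom, median residual SD 0.221), and moderated p-values were adjusted by Benjamini-Hochberg over 66195 probes. A probe passed at an adjusted p below 0.05 and at least a 2-fold change. The difference between cultivars was tested as an interaction in the same fit. The fit was tested on simulated data with 200 changed probes. It recovered 38 of 100 probes changed 2-fold and 98 of 100 changed 4-fold, with 2 false calls. The simulated 2-fold changes lay exactly at the fold limit, so noise alone put many of them below it. Far fewer probes were changed than the 15.9% that passed by adjusted p alone in W-D10 against W-C, so the adjustment was stricter. The recovered shares therefore do not measure how often changes were missed in the data. A change of about 2-fold can still fail to pass. Summaries and figures used Python 3.11.15, pandas 2.3.3, numpy 2.4.6 and matplotlib 3.10.9. The number of arrays limits the precision.

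Gene names came from tables of the study (2975 probes) or from array symbols (3055 probes), and 5833 probes carried exactly 1 gene. Arabidopsis matches are those the study's tables give. Named genes were the 15 largest increases and decreases with exactly 1 gene and groups apart, for each of 39 gene lists every member of lists up to 12 and otherwise up to 6 with the lowest adjusted p and up to 2 of the minority direction, genes discussed by the study, Arabidopsis matches with soybean genes of opposite direction, and the 8 largest differences between cultivars per direction. The comparison, members and lists were chosen with earlier results of these data known. The alternatives were the compared groups alone, a replicate block, median centring, quantile normalization, array weights, a trended robust prior, no fold threshold, the methods' t-test and leaving out each array.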

Additional observations from a re-analysis of the deposited data

Results flagged for a closer look

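For 30 named genes the change at 10 h of dehydration differed between W82 and DT2008 by the test of the difference itself. Each difference is the W82 change minus the DT2008 change on the log2 scale, and 1 of the 30 passed under every alternative and 10 whenever a single array was left out. The cultivars also differed in degree of drying at that time, and its part in these differences was not tested.

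The change was more positive in W82 for 18 genes. Differences were 2.78 for the branched-chain aminotransferase Glyma.04G049200, 2.06 for the membrane protein Glyma.03G195500 and 2.06 for the zinc knuckle protein Glyma.08G297100. They were 2.05 for Glyma.01G192800, 2.04 for NAC11 and 2.02 for the COR27 match Glyma.17G242100. The ferulate hydroxylase FAH1 match Glyma.08G140600, a gene of lignin synthesis, differed by 1.92, with a change of 1.92 in W82 and 0.01 in DT2008. The methylenetetrahydrofolate reductase Glyma.18G278900 differed by 1.87, but there the DT2008 change was -1.66 and the W82 change only 0.20. Further differences were 1.79 for the RD26 match Glyma.12G149100, 1.58 for the glycosyltransferase Glyma.18G265800 and 1.52 for the GIGANTEA match Glyma.16G163200. Smaller ones were 1.36 for the NB-ARC resistance protein Glyma.13G184800, 1.30 for the gibberellin oxidase Glyma.07G236100, 1.29 for the myotubularin phosphatase Glyma.20G189100 and 1.27 each for the EF-hand protein Glyma.06G258000 and the salt tolerance homologue Glyma.14G216500. The last were 1.15 for Glyma.04G083000 and 1.02 for the RD26 match Glyma.06G248900.

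The change was more negative in W82 for 12 genes. Differences were -3.30 for the P450 Glyma.05G220500, -3.06 for the wound-responsive Glyma.06G297600, -2.21 for the P450 Glyma.10G115300 and -2.15 for Glyma.16G037600. The RADIALIS-like factor Glyma.11G069100 differed by -2.04, ENOD93 by -1.95, the pectin methylesterase or invertase inhibitor Glyma.09G033700 by -1.91 and the cysteine-rich kinase Glyma.20G139300 by -1.90. The ammonium transporter Glyma.01G123400 differed by -1.80, the resistance protein Glyma.13G190000 by -1.76, the wound-responsive Glyma.06G303000 by -1.12 and the peroxidase Glyma.20G001400 by -1.06.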

How the results depend on the processing

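In W-D10 against W-C, 2307 probes rose and 1100 fell, against 5603 and 4918 with no fold threshold and 897 and 292 with the methods' t-test, which uses only the 6 compared arrays and no shared spread. W-D10 against W-D2 gave 958 and 656, against 2997 and 3020 with no fold threshold, where falls rather than rises were the more numerous, and 50 and 12 with that t-test. For the difference between cultivars, 158 more positive and 103 more negative probes became 7 and 5 with the t-test and 87 and 54 with a trended robust prior, and array weights gave 156 more negative ones. Quantile normalization gave 1955 rises and 1075 falls in W-D10 against W-C.

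Leaving out 1 array moved the rises in W-D10 against W-C between 2162 and 2435 and the falls between 1044 and 1271, and in W-D10 against W-D2 between 902 and 1006 and between 572 and 847. The difference between cultivars ranged from 69 to 232 more positive and from 46 to 127 more negative probes. It fell to 89 and 61 without W-C replicate 1, to 98 and 61 without W-D10 replicate 2, to 84 and 58 without DT-C replicate 1, to 118 and 65 without DT-C replicate 3, to 69 and 46 without DT-D10 replicate 1, and to 71 and 54 without DT-D10 replicate 3. Causes were not tested.

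The numbers of replicates share no more than a number: same-numbered W-D10 and W-C arrays correlated in their deviations by -0.02 to 0.07. A replicate block gave 2301 rises and 1094 falls in W-D10 against W-C, 954 and 658 in W-D10 against W-D2, and 115 and 83 for the difference between cultivars. Of 284 named genes that passed, 188 did so under every alternative, 191 under every one that kept all arrays and 248 whenever an array was left out; most of the lost calls under single omitted arrays had changes close to 2-fold. The number of probes that rose or fell on a list moved by over 1.5 times for 29 list directions with the t-test, 7 with quantile normalization, 3 with array weights and 1 with the compared groups only. With 1 array left out it did so for 3 to 9 list directions, 9 without W-C replicate 1 or W-D10 replicate 3 and 7 without W-C replicate 3. Apart from rises of the WRKY, bZIP and GASA lists these were falls that numbered 3 or fewer with all arrays. The change of no named gene that passed reversed its sign under an alternative.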

Other observations

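Seed storage proteins, protease inhibitors and phenylpropanoid genes were also read, where 3.49% of all probes rose and 1.66% fell. Of 13 seed storage probes 2 rose, and of 6 protease inhibitor probes 1 rose, the Kunitz-type KTI1 match Glyma.08G342100 at 2.35. Of 42 phenylpropanoid and flavonoid probes 6 rose and 2 fell (median 0.00). Glyma.06G202300, the match of the flavonoid 3'-hydroxylase TT7, had 0.10, 0.00 and -0.01 in W-D10, against -1.24, -1.67 and -1.22 in W-C (1.41 ± 0.17, adjusted p = 8.2e-06). Glyma.09G094600, an O-methyltransferase, had 2.52, 1.74 and -0.18 in W-D10, against 3.48, 3.51 and 3.63 in W-C (-2.18 ± 0.42, adjusted p = 0.0013), the dehydrated arrays being far apart and the watered ones close together. Of 34 probes for proteolysis and senescence 7 rose and 3 fell. Glyma.13G176100, the polyubiquitin UBQ10 match, rose by 2.62 ± 0.20, and Glyma.17G230700, the match of the vacuolar processing enzyme gamma-VPE, had 0.03, 0.25 and -0.27 in W-D10, against 1.05, 1.30 and 1.18 in W-C (-1.17 ± 0.18, adjusted p = 0.00013).

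Values of 214 probes were identical to those of another probe, and 21 of these passed in W-D10 against W-C, so the counts of probes slightly exceed the counts of separate measurements.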
